A study of Arabidopsis thaliana with 24 samples.

Results

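Transcript levels of 8 shade avoidance regulators were followed in Arabidopsis thaliana pistils over 6 groups of plants. The genes are ATHB2, ATHB4, HAT1, HAT2, HAT3, PIL1, PAR1 and PAR2. They were chosen by gene identifier for their known place downstream of phytochrome B and the PIF proteins in seedlings, and they are 8 of the 33055 genes in the count table. Unfertilized pistils were taken before anthesis from 3 genotypes. The first was 35S::PIF4, in which the viral 35S promoter drives PIF4 in most tissues and not only where PIF4 is normally active. The second was the photoreceptor mutant phyB (allele phyB-9), and the third was wild-type Col-0, the background of both lines. All plants were raised in long days at day and night temperatures of 21 °C and 18 °C (nAT). Once they flowered, part of each genotype was moved to 28 °C in the day and 24 °C at night (hAT) while the rest stayed at nAT. Each of the 6 groups had 4 libraries, which the study describes as biological replicates. The tissue label reads pistils, whereas the extraction protocol speaks of ovules.

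In light-grown plants, active phytochrome B binds PIF transcription factors and leads to their breakdown. Shade from neighbouring leaves and warmth both return phytochrome B to its inactive state, so that PIFs build up and turn on genes for elongation. ATHB2, ATHB4, HAT1, HAT2 and HAT3 encode homeodomain-leucine zipper (HD-Zip) class II transcription factors. PIL1 encodes a bHLH protein related to the PIFs, and in seedlings ATHB2 and PIL1 are among the earliest genes that shade induces. PAR1 and PAR2 encode small HLH proteins that do not bind DNA but pair with PIFs and other bHLH factors, which makes them brakes on the shade response. HAT3 and ATHB4 act together in leaf polarity and in the growth of the carpel margins, and HAT1, also called JAIBA, is needed for gametophyte and carpel development.

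The libraries held 18379748 to 30184035 counts. All 10 carpel and ovule markers checked (AG, CRC, SHP1, SHP2, STK, SPT, INO, BEL1, NTT and HEC1) were expressed. They summed to 508.6 to 546.7 CPM at hAT and 581.8 to 641.9 CPM at nAT, lower at hAT in each genotype. CPM are counts relative to the library total, scaled by the TMM method. Single markers moved both ways. In Col-0, HEC1 averaged 5.31 CPM at hAT and 31.8 CPM at nAT, and SHP1 88.4 CPM at hAT and 57.5 CPM at nAT. The 4 Col-0 libraries at nAT stood apart from the other 20. Their counts fell on shorter genes, and the mean gene length, weighted by counts, was 1612 to 1804 bases there and 2065 to 2220 in all others, and replicate 2 differed most from its group. For the 8 genes, differences that involve Col-0 at nAT and pass both thresholds (adjusted p under 0.05, log2 fold change of 1 or more in either direction) are therefore also given without that replicate, and several of them with the trend on gene length removed. PIF4 itself was at 3.55 to 5.17 CPM in 35S::PIF4 at hAT, 5.71 to 6.39 CPM in 35S::PIF4 at nAT, 2.09 to 2.82 CPM in warm Col-0 and 1.21 to 2.72 CPM in Col-0 at nAT, so at each temperature every 35S::PIF4 library was above every Col-0 library. At hAT, however, PIF4 did not pass both thresholds between 35S::PIF4 (mean 4.42 CPM) and Col-0 (mean 2.43 CPM). In phyB, PIF4 was at 3.44 to 4.04 CPM at hAT and 2.46 to 4.44 CPM at nAT. The 35S::PIF4 libraries thus overlapped those of phyB at hAT and lay above them at nAT. The phyB-9 allele still makes a transcript, and PHYB levels do not check that label. In RNA from whole pistils, fewer cells of a type and less RNA per cell cannot be told apart.

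All 8 genes passed the filter on low counts that left 21312 genes for testing, and none overlaps another annotated gene. Compared per length, as FPKM, HAT1 was the most abundant member in every group, with group means of 55.6 FPKM in Col-0 at hAT to 82.0 FPKM in phyB at nAT. ATHB2 was the least abundant in 5 of the 6 groups, from 2.40 FPKM in Col-0 at nAT to 3.65 FPKM in phyB at nAT. In phyB at hAT it was at 8.31 FPKM, and ATHB4 (7.46 FPKM) and PAR1 (8.12 FPKM) were lower. All other group means lay between those of ATHB2 and HAT1 in the same group. The members also differed in how far they moved. The ratio of the highest to the lowest group mean in CPM was 4.21 for PIL1, 3.66 for ATHB2, 2.96 for PAR1 and 2.70 for PAR2. It was 1.73 for HAT3, 1.48 for HAT1, 1.36 for HAT2 and 1.35 for ATHB4. Hence 4 genes varied strongly between groups, and they shared their highest group as 2 pairs, PIL1 with ATHB2 and PAR1 with PAR2. The pairs did not move alike in every comparison. At hAT, 35S::PIF4 differed from Col-0 by 0.74 on the log2 scale for PIL1 and 0.013 for ATHB2. Between temperatures in phyB, PAR1 differed by -0.73 and PAR2 by -0.17.

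**Figure D1:**
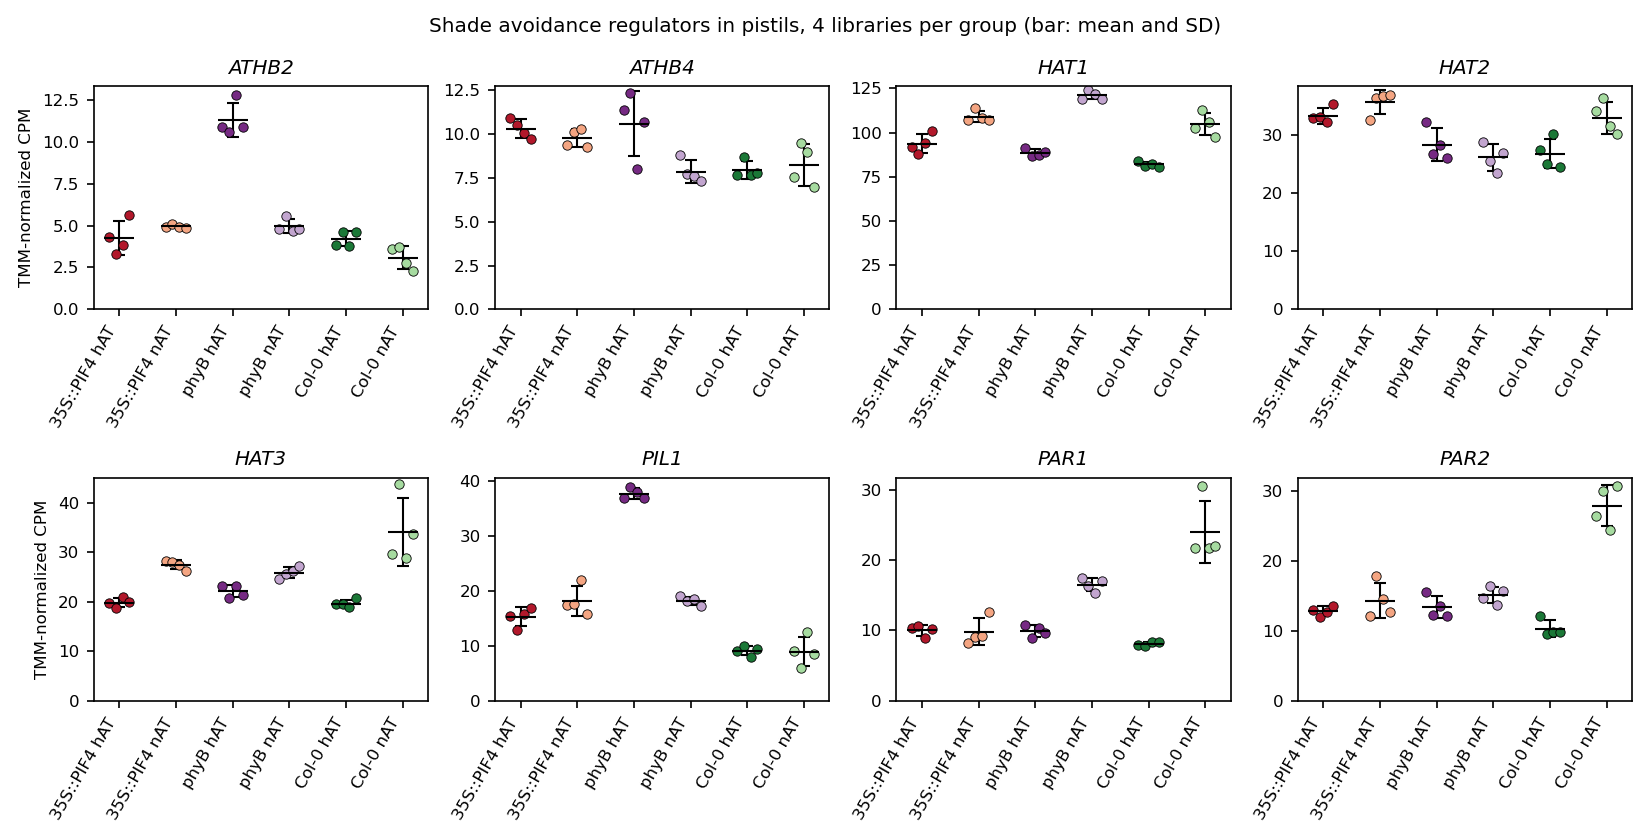
TMM-normalized CPM of the 8 genes (vertical axes, each starting at 0) in the 6 groups (horizontal axes); points are the 4 libraries of a group and the bar shows their mean and SD. PIL1 and ATHB2 are highest in phyB at hAT (37.7 ± 1.01 and 11.3 ± 1.02 CPM), and PAR1 and PAR2 are highest in Col-0 at nAT (24.0 ± 4.39 and 27.8 ± 2.95 CPM).

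PIL1 (AT2G46970, chromosome 2 from 19295431 to 19297858 of TAIR10, minus strand) was most abundant in phyB pistils at hAT. Its levels there were 37.0, 39.0, 38.1 and 36.8 CPM, against 19.0, 18.2, 18.5 and 17.2 CPM in phyB at nAT. Every warm phyB library was above every phyB library at nAT, and the log2 fold change was 1.05 (SE, its standard error, 0.116, edgeR adjusted p = 5.77e-08). In 35S::PIF4 the levels were 15.5, 12.9, 15.8 and 16.9 CPM at hAT and 17.4, 17.6, 22.1 and 15.8 CPM at nAT, and the temperatures overlapped. In Col-0 they were 9.13, 10, 8.04 and 9.41 CPM at hAT and 9.01, 5.89, 12.5 and 8.49 CPM at nAT, which also overlapped. Replicate 2 of Col-0 at nAT had the lowest value of all 24 libraries and replicate 3 the highest of the Col-0 libraries. For Col-0 the difference between temperatures was 0.019 on the log2 scale with a 95% confidence interval of -0.27 to 0.31, so that a change of more than about 0.31 in either direction lay outside the interval. The order of the groups was phyB at hAT, then phyB at nAT, 35S::PIF4 at nAT and 35S::PIF4 at hAT with overlapping ranges, and last Col-0 at both temperatures, below all libraries of the mutant lines.

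ATHB2 (AT4G16780, chromosome 4 from 9449114 to 9450905, plus strand, named HAT4 in the count table) had the same highest group. It was at 10.9, 10.6, 12.8 and 10.9 CPM in phyB at hAT, against 4.80, 5.59, 4.67 and 4.83 CPM in phyB at nAT. The warm phyB libraries were 2.28 times as high and did not overlap those at nAT, with a log2 fold change of 1.19 (SE 0.132, edgeR adjusted p = 6.81e-08). In 35S::PIF4 it was at 4.34, 3.28, 3.82 and 5.63 CPM at hAT and 4.93, 5.12, 4.93 and 4.83 CPM at nAT, with the nAT libraries inside the range of the warm ones. In Col-0 it was at 3.83, 4.61, 3.81 and 4.65 CPM at hAT and 3.603, 3.71, 2.76 and 2.29 CPM at nAT. These did not overlap, and the log2 difference of 0.47 passed the adjusted p threshold (0.00989) but not the fold threshold of 1. Counts of ATHB2 ranged from 41 to 406 per library, the fewest of the 8 genes. The tapetum markers, a check for stamen tissue, were lower in warm phyB pistils than in phyB pistils at nAT: the 8 markers summed to 7.59 to 21.6 CPM at hAT and 74.1 to 82.3 CPM at nAT, with MS1 at 0 in both. The 2 petal and stamen markers checked, AP3 and PI, were also lower, at 29.1 to 45.4 CPM in phyB at hAT and 63.6 to 69.6 CPM in phyB at nAT. The 4 green tissue markers (RBCS1A, LHCB1.1, LHCA1 and PSAD-1) went the other way. They summed to 4944 to 5362 CPM in phyB at hAT and 4546 to 4725 CPM in phyB at nAT. The part of all these markers in the ATHB2 and PIL1 result was not tested. Upstream of ATHB2 lies 1 match to CAATNATTG, a general form of the palindrome that HD-Zip proteins bind, here with A at the centre. It is shown because ATHB2 is itself an HD-Zip gene, and the match is not assigned to a class of HD-Zip proteins. The stretch is chr4:9448617-9448665 of TAIR10 on the plus strand, positions -497 to -449 from the annotated gene start, with the match in capitals.
ATHB2: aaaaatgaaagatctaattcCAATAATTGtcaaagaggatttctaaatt

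PAR1 (AT2G42870, chromosome 2 from 17836416 to 17837618, minus strand) showed the opposite extreme group. It was at 7.97, 7.82, 8.33 and 8.33 CPM in Col-0 at hAT, against 21.7, 30.6, 21.8 and 21.9 CPM in Col-0 at nAT. The ranges were far apart, and replicate 2 at nAT was the highest library. PAR1 fell at hAT in Col-0 with a log2 fold change of -1.56 (SE 0.116, edgeR adjusted p = 2.96e-12), and with -1.43 when that replicate was left out. In phyB it was at 10.8, 8.94, 10.4 and 9.65 CPM at hAT and 17.5, 16.3, 15.3 and 17.0 CPM at nAT. The phyB groups did not overlap either, but the log2 difference of -0.73 (adjusted p = 1.06e-05) did not reach the fold threshold. In 35S::PIF4 it was at 10.4, 10.7, 8.91 and 10.2 CPM at hAT and 8.26, 9.12, 9.17 and 12.6 CPM at nAT, overlapping levels that also overlapped those of phyB at hAT. The groups thus ran from Col-0 at nAT to phyB at nAT, each clear of the next, and then to 35S::PIF4 at hAT, phyB at hAT, 35S::PIF4 at nAT and Col-0 at hAT, in which neighbours overlapped.

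PAR2 (AT3G58850, chromosome 3 from 21759350 to 21760390, minus strand), the closest relative of PAR1, followed it in Col-0. It was at 12.1, 9.54, 9.85 and 9.76 CPM at hAT, against 26.4, 29.9, 24.4 and 30.6 CPM at nAT. All 4 warm libraries were below all 4 at nAT, with a log2 fold change of -1.43 (SE 0.111, edgeR adjusted p = 6.6e-12), or -1.40 without replicate 2 at nAT. In phyB it was at 15.6, 12.3, 13.6 and 12.0 CPM at hAT and 14.7, 16.4, 13.7 and 15.6 CPM at nAT. In 35S::PIF4 it was at 13.0, 12.0, 12.6 and 13.6 CPM at hAT and 12.1, 17.8, 14.6 and 12.7 CPM at nAT. Both lines overlapped between temperatures, so Col-0 at nAT stood alone at the top and the other 5 groups formed a continuous series. For PAR1, by contrast, phyB at nAT lay clear of the groups above and below it. The 4 green tissue markers checked (RBCS1A, LHCB1.1, LHCA1 and PSAD-1) had the same highest group. They summed to 10800 to 13700 CPM in Col-0 at nAT and to 3765 to 6351 CPM in the other 20 libraries, with none of them at 0. In Col-0 the 3 pollen markers (LAT52-like, PPME1 and VGD1) summed to 168.5 to 182.2 CPM at hAT and 74.2 to 103.8 CPM at nAT, and the petal and stamen markers to 54.6 to 59.9 CPM at hAT and 75.8 to 101.6 CPM at nAT, again with none at 0. The part of these markers in the PAR1 and PAR2 results was not tested. With the trend on gene length removed, the Col-0 changes were -1.24 for PAR1 and -1.01 for PAR2, both still past the thresholds.

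The upstream regions of PAR1 and PAR2 held the densest groups of PIF target motifs among the 8 genes, and they are shown for that reason. PIF proteins bind the G-box CACGTG and the PBE box, CACATG on one strand and CATGTG on the other. The PAR1 stretches are chr2:17838503-17838575 and chr2:17838324-17838414 of TAIR10 on the minus strand, at positions -957 to -885 and -796 to -706. Both overlap another annotated gene, AT2G09405. The PAR2 stretches are chr3:21761094-21761185 and chr3:21760493-21760538 on the minus strand, at positions -795 to -704 and -148 to -103. Capitals mark the G-box in the first PAR1 stretch and PBE boxes elsewhere, and 2 PBE matches overlap in the first PAR2 stretch.
PAR1, -957 to -885: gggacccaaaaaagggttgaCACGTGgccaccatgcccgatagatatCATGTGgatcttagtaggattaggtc
PAR1, -796 to -706: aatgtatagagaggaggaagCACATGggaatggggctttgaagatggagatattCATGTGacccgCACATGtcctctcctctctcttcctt
PAR2, -795 to -704: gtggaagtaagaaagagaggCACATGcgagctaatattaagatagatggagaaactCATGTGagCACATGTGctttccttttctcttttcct
PAR2, -148 to -103: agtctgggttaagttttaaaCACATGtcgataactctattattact

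The PBE boxes of the paired stretches begin at -776, -742 and -731 in PAR1 and at -775, -739, -731 and -729 in PAR2, which is nearly the same distance from the start of each gene. The positions are a description and not evidence of binding. No stretch of 50 bases was shared between any of the 28 pairs of member genes, so reads of one member had no long identical copy in another.

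Among the remaining HD-Zip genes, HAT3 (AT3G60390, chromosome 3 from 22320580 to 22322661, minus strand) was lower in the warm in each genotype, always by less than the fold threshold. It was at 19.6, 19.5, 19.0 and 20.7 CPM in Col-0 at hAT, against 29.7, 43.9, 28.9 and 33.7 CPM in Col-0 at nAT. Replicate 2 at nAT was well above its group, and the log2 difference of -0.79 (SE 0.0883, edgeR adjusted p = 7.98e-09) was -0.65 without it. In 35S::PIF4, HAT3 was at 19.8, 18.7, 21.0 and 19.9 CPM at hAT and 28.4, 28.2, 27.4 and 26.2 CPM at nAT, a log2 difference of -0.47 (adjusted p = 5.7e-05) with no overlap. In phyB it was at 23.2, 20.8, 23.3 and 21.5 CPM at hAT and 24.6, 25.7, 26.3 and 27.2 CPM at nAT. These libraries did not overlap, with the smallest of the HAT3 differences (-0.22, adjusted p = 0.038, or 0.0525 under median-of-ratios scaling). HAT3 therefore separated the libraries by temperature in all 3 genotypes.

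HAT1 (AT4G17460, chromosome 4 from 9739518 to 9741234, plus strand) was likewise lower at hAT in each genotype, with no overlap between temperatures. It was at 92.0, 87.9, 94.0 and 101 CPM in 35S::PIF4 at hAT and 107, 114, 109 and 107 CPM in 35S::PIF4 at nAT. In phyB it was at 91.2, 87.0, 87.6 and 89.0 CPM at hAT and 119, 124, 122 and 119 CPM at nAT, and in Col-0 at 84.1, 81.0, 82.5 and 80.8 CPM at hAT and 103, 113, 106 and 97.6 CPM at nAT. The replicates were tight, so that the differences passed the adjusted p threshold although they were small. The log2 values were -0.22 (adjusted p = 0.000652) in 35S::PIF4, -0.45 (adjusted p = 7.47e-08) in phyB and -0.35 (adjusted p = 6.27e-07) in Col-0, all from edgeR. None reached the fold threshold. The summed carpel and ovule markers were also lower at hAT in each genotype, and their part in the HAT1 and HAT3 differences was not tested. HAT1 has 1 match to CAATNATTG upstream, at chr4:9738760-9738808 on the plus strand, positions -758 to -710, printed for comparison with that of ATHB2 above. The 2 matches differ in the centre base, which is G in HAT1 and A in ATHB2.
HAT1: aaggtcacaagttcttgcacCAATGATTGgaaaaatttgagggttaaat

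HAT2 (AT5G47370, chromosome 5 from 19216271 to 19218007, minus strand), known in seedlings as an auxin-inducible gene, showed no common direction. It was at 27.4, 25.0, 30.03 and 24.5 CPM in Col-0 at hAT, against 34.0, 36.2, 31.4 and 30.04 CPM in Col-0 at nAT, just without overlap, with a log2 difference of -0.30 (adjusted p = 0.00168). The phyB libraries ranged from 26.0 to 32.2 CPM at hAT and from 23.4 to 28.8 CPM at nAT, and the 35S::PIF4 libraries from 32.1 to 35.3 CPM at hAT and from 32.4 to 36.9 CPM at nAT. Both overlapped between temperatures, with log2 differences of 0.12 (adjusted p = 0.236) in phyB and -0.10 (adjusted p = 0.314) in 35S::PIF4. HAT2 was one of only 2 members with a PBE box close to the start. It is shown from chr5:19218100-19218145 on the minus strand, positions -138 to -93, with the match in capitals.
HAT2: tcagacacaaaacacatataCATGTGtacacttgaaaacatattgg

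ATHB4 (AT2G44910, chromosome 2 from 18517656 to 18519731, minus strand) was the flattest of the 8 genes. It ranged from 9.70 to 10.9 CPM in 35S::PIF4 at hAT, 9.29 to 10.3 CPM in 35S::PIF4 at nAT, 7.98 to 12.3 CPM in phyB at hAT, 7.33 to 8.80 CPM in phyB at nAT, 7.66 to 8.70 CPM in warm Col-0 and 6.97 to 9.52 CPM in Col-0 at nAT. Neighbouring groups in the order of the means all overlapped, as they did for HAT2. The phyB groups differed by 0.42 (adjusted p = 0.00328) on the log2 scale, whereas 35S::PIF4 and Col-0 differed between temperatures by 0.075 (adjusted p = 0.584) and -0.046 (adjusted p = 0.73).

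The temperature comparisons ask which genes respond to warmth in each genotype. In Col-0, 24.2% of the 21312 tested genes rose at hAT and 13.4% fell, counting genes past both thresholds, 0.05 for the adjusted p and 1 for the size of the log2 fold change. Of the 8 regulators 2 fell, PAR1 and PAR2, and none rose. A further 4 (ATHB2, HAT1, HAT2 and HAT3) passed the adjusted p threshold alone. The median log2 difference of the 8 genes was -0.32, beside 0.14 over all tested genes. In phyB, where 4.63% of tested genes rose and 3.46% fell, 2 of the 8 rose, ATHB2 and PIL1, and none fell. HAT1, HAT3, ATHB4 and PAR1 passed the adjusted p threshold alone, and PAR2 differed by -0.17 (adjusted p = 0.206). The median of the 8 genes was -0.028, beside -0.0019 over all tested genes. In 35S::PIF4, 8.5% of tested genes rose and 2.48% fell, while none of the 8 regulators reached both thresholds in edgeR and 2 (HAT1 and HAT3) passed the adjusted p threshold; 3 of the 8 had an unadjusted p under 0.05, with PIL1 as the third at -0.26 (adjusted p = 0.0762), and DESeq2 called none. The differences in 35S::PIF4 were -0.22 for ATHB2 (95% confidence interval -0.51 to 0.073), 0.043 for PAR1 (-0.20 to 0.28) and -0.17 for PAR2 (-0.39 to 0.060), intervals that left out a change of 1.

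**Figure D2:**
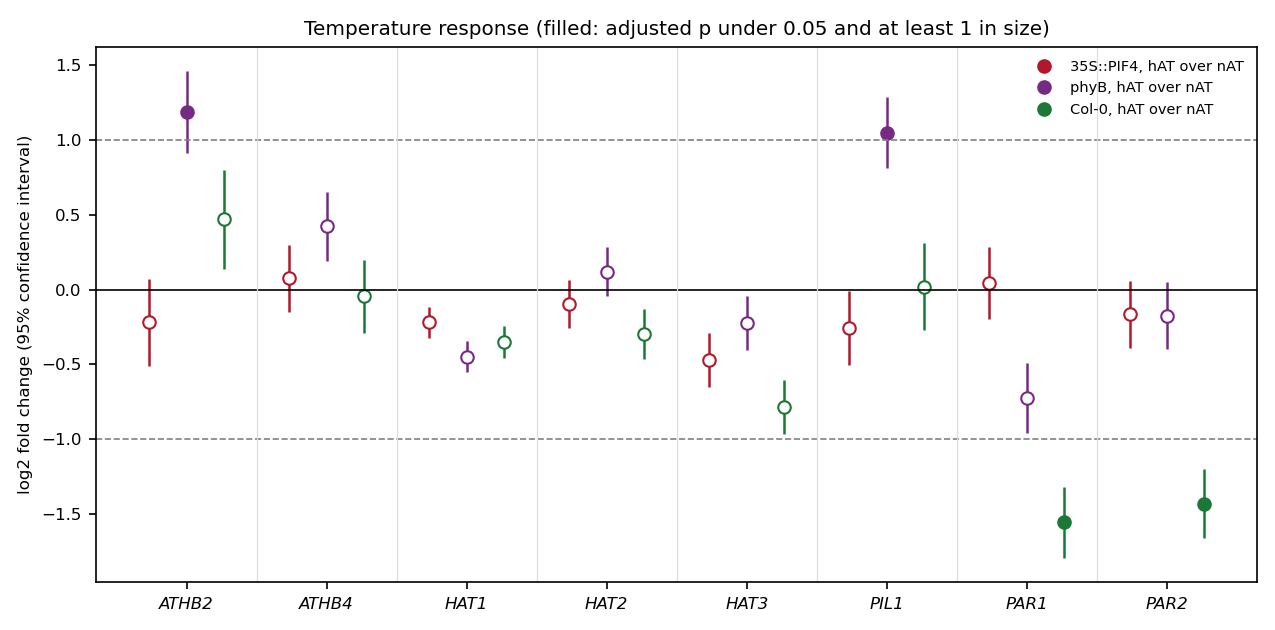
Log2 fold change of hAT over nAT (vertical axis) for the 8 genes in 35S::PIF4, phyB and Col-0, with 95% confidence intervals; filled points passed both thresholds and dashed lines mark a change of 1. Filled points are ATHB2 and PIL1 in phyB (1.19 and 1.05) and PAR1 and PAR2 in Col-0 (-1.56 and -1.43).

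Differences between genotypes in the temperature response were tested directly. In each comparison with Col-0, 2 of the 8 genes passed both thresholds, no larger a share than among all tested genes. Between phyB and Col-0 the response differed for 32.2% of tested genes, and for PIL1 and PAR2 among the 8. PIL1 rose in phyB (1.05) and was level in Col-0 (0.019), a difference of 1.03 (SE 0.183, edgeR adjusted p = 1.84e-05). The response of PAR2 was higher in phyB by 1.26 (SE 0.156, adjusted p = 8.24e-08), from temperature values of -0.17 in phyB and -1.43 in Col-0. Without Col-0 nAT replicate 3 the PIL1 value was 0.84 and without Col-0 hAT replicate 3 it was 0.97, both under the fold threshold. Another 5 members passed the adjusted p threshold only, all with a higher response in phyB: PAR1 by 0.83 (adjusted p = 6.3e-05), ATHB2 by 0.72 (adjusted p = 0.00382), HAT3 by 0.56 (adjusted p = 0.000254), ATHB4 by 0.47 (adjusted p = 0.0129) and HAT2 by 0.42 (adjusted p = 0.00215). Between 35S::PIF4 and Col-0 the response differed for 31.1% of tested genes, and for PAR1 and PAR2 among the 8, by 1.60 (SE 0.165, edgeR adjusted p = 3.82e-09) and 1.26 (SE 0.157, adjusted p = 8.75e-08). ATHB2 passed the adjusted p threshold only, in the other direction, at -0.69 (adjusted p = 0.00623), and HAT3 in the same direction as the PAR genes, at 0.31 (adjusted p = 0.0277), or 0.17 (adjusted p = 0.0817) without Col-0 nAT replicate 2. With the length trend removed the PAR1 and PAR2 values were 1.28 and 0.82, the second under the fold threshold. The PAR2 difference between phyB and Col-0 was then 0.92, also under it. Without Col-0 nAT replicate 2 the interactions of PAR2 were 1.22 for phyB and 1.23 for 35S::PIF4, that of PAR1 for 35S::PIF4 was 1.47 and that of PIL1 for phyB was 1.17.

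Between 35S::PIF4 and phyB, a comparison free of the Col-0 libraries, the temperature response differed for 6.36% of tested genes and for ATHB2 and PIL1 among the 8. ATHB2 differed by -1.41 (SE 0.194, edgeR adjusted p = 6.04e-06) and PIL1 by -1.31 (SE 0.167, adjusted p = 1.98e-06), both lower in 35S::PIF4. Leaving out any 1 of the 16 libraries concerned kept these calls. The responses of PAR2 differed by 0.0068 (95% confidence interval -0.31 to 0.33), while PAR1 differed by 0.77 (adjusted p = 0.000945), under the fold threshold.

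At hAT the genotype comparisons ask what the mutant lines add to warmth. In phyB against Col-0, 1.56% of tested genes were called higher and 3.22% lower, and 2 of the 8 regulators were called, both higher. PIL1 averaged 37.7 ± 1.01 CPM in phyB and 9.14 ± 0.824 CPM in Col-0 (n = 4 each, SD), and the log2 fold change was 2.04 (SE 0.123, adjusted p = 3.12e-12 in edgeR's fit), the largest called difference among all comparisons of the 8 genes. ATHB2 averaged 11.3 ± 1.02 CPM in phyB and 4.22 ± 0.467 CPM in Col-0, a log2 fold change of 1.42 (SE 0.134, edgeR adjusted p = 9.52e-09). ATHB4 and PAR2 differed by 0.41 (adjusted p = 0.00623) and 0.38 (adjusted p = 0.0128), below the fold threshold and with overlapping libraries. The tapetum markers summed to 7.59 to 21.6 CPM in these phyB libraries and to 23.2 to 27.8 CPM in those of Col-0, the pollen markers to 56.5 to 131.9 CPM in phyB and 168.5 to 182.2 CPM in Col-0, and the petal and stamen markers to 29.1 to 45.4 CPM in phyB and 54.6 to 59.9 CPM in Col-0. The green tissue markers were higher in phyB, at 4944 to 5362 CPM against 3765 to 3897 CPM in Col-0. The part of all these markers was not tested.

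In 35S::PIF4 against Col-0 at hAT, 1.47% of tested genes were called higher and 1.61% lower, and none of the 8 regulators was called in edgeR or DESeq2. In edgeR 6 of them had an unadjusted p under 0.05 and an upward difference, and 4 passed the adjusted p threshold alone. PIL1 was nearest, at 15.3 ± 1.72 CPM in 35S::PIF4 against 9.14 ± 0.824 CPM in Col-0, with a log2 difference of 0.74 (adjusted p = 0.000101) and no overlap. The others were ATHB4 at 0.38 (adjusted p = 0.0147), HAT2 at 0.32 (adjusted p = 0.00446) and HAT1 at 0.19 (adjusted p = 0.00699), also without overlap. ATHB2 was level, with a difference of 0.013 and a confidence interval of -0.29 to 0.31. In 35S::PIF4 set directly against phyB at hAT, 2.67% of tested genes were called higher and 1.22% lower. ATHB2 and PIL1 were the 2 members called, both lower in 35S::PIF4, by -1.41 (SE 0.135, edgeR adjusted p = 1.02e-08) and -1.31 (SE 0.118, adjusted p = 3.44e-09). The libraries of these groups did not overlap for either gene. The petal and stamen markers summed to 55.9 to 58.4 CPM in 35S::PIF4 and 29.1 to 45.4 CPM in phyB. The green tissue markers summed to 3910 to 4223 CPM in 35S::PIF4 and 4944 to 5362 CPM in phyB, and the part of these markers was not tested. PAR1 and PAR2 differed by 0.010 and -0.065, with confidence intervals of -0.23 to 0.25 and -0.29 to 0.16.

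**Figure D3:**
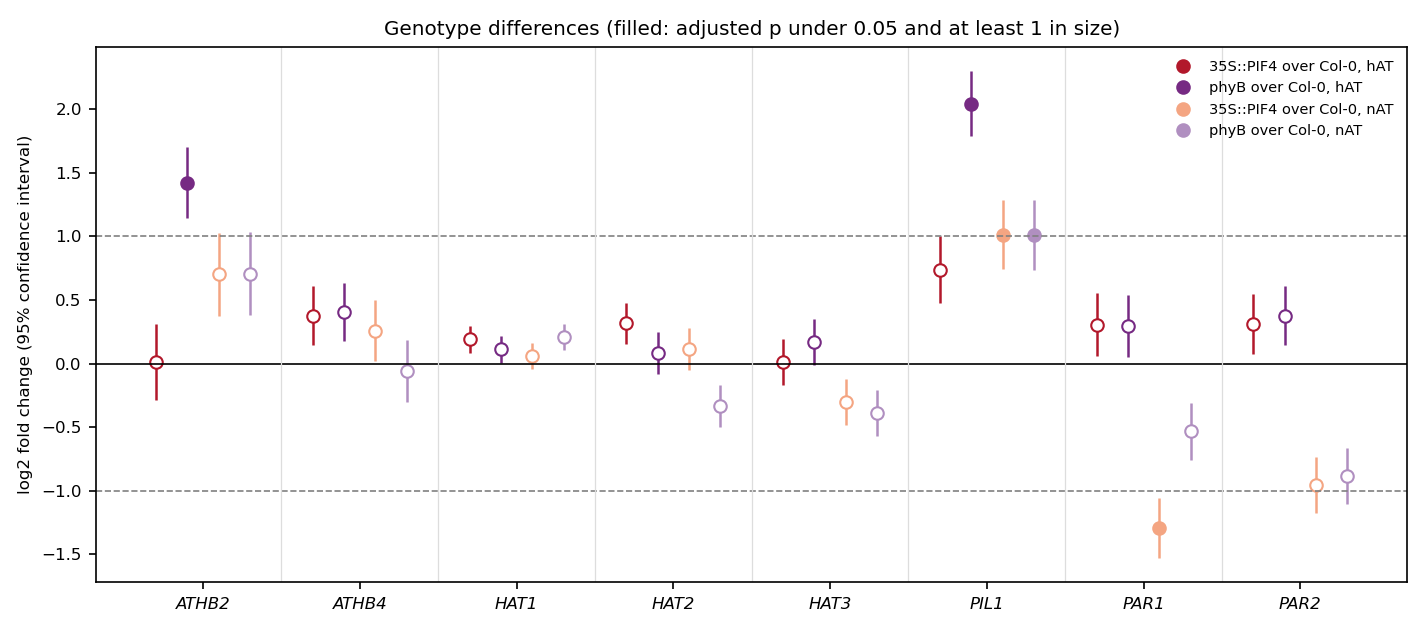
Log2 fold change of 35S::PIF4 or phyB over Col-0 (vertical axis) for the 8 genes at hAT and at nAT, with 95% confidence intervals; filled points passed both thresholds and dashed lines mark a change of 1. PIL1 reaches 2.04 in phyB at hAT and lies at 1.01 and 1.01 in the lines at nAT, while PAR1 and PAR2 lie below 0 at nAT.

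At nAT the genotype comparisons ask whether the lines differ from the wild type without warmth, and both share the same 4 Col-0 libraries. In phyB, 21.2% of tested genes were called higher and 11.9% lower than in Col-0, and 1 of the 8 regulators was called. PIL1 averaged 18.2 ± 0.757 CPM in phyB against 8.96 ± 2.70 CPM in Col-0, with a log2 fold change of 1.01 (SE 0.134, edgeR adjusted p = 1.49e-07) and no overlap. That value lay at the fold threshold. It was 0.88 without Col-0 nAT replicate 2, 0.98 without replicate 4, 0.99 without phyB nAT replicate 1 and 0.94 in DESeq2. PAR2 and PAR1 were lower in phyB, by -0.88 (adjusted p = 4.15e-08) and -0.53 (adjusted p = 9.78e-05), and ATHB2 was higher by 0.71 (adjusted p = 0.000269), with no overlap for any of these but under the fold threshold. HAT1, HAT2 and HAT3 passed the adjusted p threshold with differences of 0.21, -0.33 and -0.39, and ATHB4 differed by -0.059 (-0.30 to 0.19).

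In 35S::PIF4 at nAT, 19.3% of tested genes were called higher and 12.2% lower than in Col-0, and 2 of the 8 regulators were called. PIL1 was higher, at 18.2 ± 2.69 CPM in 35S::PIF4 against 8.96 ± 2.70 CPM in Col-0, with a log2 fold change of 1.01 (SE 0.133, edgeR adjusted p = 1.42e-07). It dropped under the fold threshold to 0.88 without Col-0 nAT replicate 2, 0.98 without replicate 4 and 0.91 without 35S::PIF4 nAT replicate 3. PAR1 was lower, at 9.78 ± 1.92 CPM in 35S::PIF4 against 24.0 ± 4.39 CPM in Col-0, with a log2 fold change of -1.29 (SE 0.114, edgeR adjusted p = 1.01e-10), or -1.16 without Col-0 nAT replicate 2. PAR2 was close to the threshold at -0.96 (adjusted p = 1.02e-08), and passed it without Col-0 nAT replicate 3 (-1.01) or without 35S::PIF4 nAT replicate 2 (-1.11). With the length trend removed PAR1 was at -0.98 and PIL1 at 0.98, and none of the 8 was called. The green tissue markers summed to 5307 to 6351 CPM in 35S::PIF4 at nAT, 4546 to 4725 CPM in phyB at nAT and 10800 to 13700 CPM in Col-0 at nAT. The tapetum markers summed to 4.43 to 20.3 CPM in 35S::PIF4 at nAT, 74.1 to 82.3 CPM in phyB at nAT and 20.6 to 54.1 CPM in Col-0 at nAT, and the petal and stamen markers to 53.7 to 58.7 CPM, 63.6 to 69.6 CPM and 75.8 to 101.6 CPM in these groups. The part of these markers in the differences from Col-0 at nAT was not tested.

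Compared with each other at nAT, where 1.18% of tested genes were called higher in 35S::PIF4 than in phyB and 4.99% lower, the lines differed past both thresholds for none of the 8 regulators in edgeR, and DESeq2 called none. In edgeR 4 had an unadjusted p under 0.05, and the same 4 passed the adjusted p threshold. PIL1 averaged 18.2 ± 2.69 CPM in 35S::PIF4 and 18.2 ± 0.757 CPM in phyB (confidence interval of the log2 difference -0.24 to 0.24), and ATHB2 4.95 ± 0.123 CPM in 35S::PIF4 and 4.97 ± 0.417 CPM in phyB (-0.29 to 0.28). The clearest differences were in PAR1, lower in 35S::PIF4 by -0.76 (adjusted p = 1.13e-05), and HAT2, higher by 0.45 (adjusted p = 9.89e-05), both without overlap.

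The lines at nAT were also set against Col-0 at hAT, the comparison that bears on how far the lines resemble warm wild-type pistils. In phyB at nAT, 2.7% of tested genes were called higher than in warm Col-0 and 5.49% lower, and 1 of the 8 regulators was called. PAR1 was higher, at 16.5 ± 0.947 CPM in phyB at nAT against 8.11 ± 0.260 CPM in Col-0 at hAT, by 1.02 on the log2 scale (SE 0.115, edgeR adjusted p = 8.59e-08), and the value was 0.996 without phyB nAT replicate 1. The tapetum markers summed to 74.1 to 82.3 CPM in phyB at nAT and 23.2 to 27.8 CPM in warm Col-0. In these groups the pollen markers summed to 109.6 to 115.4 CPM and 168.5 to 182.2 CPM. The green tissue markers summed to 4546 to 4725 CPM and 3765 to 3897 CPM there, and the part of these markers was not tested. PIL1 was just under the threshold at 0.996 (adjusted p = 6.1e-07), and passed it when Col-0 hAT replicate 2 (1.04), Col-0 hAT replicate 4 (1.01) or phyB nAT replicate 4 (1.02) was left out. HAT1, PAR2 and HAT3 differed by 0.56, 0.55 and 0.40, all without overlap and under the fold threshold. In 35S::PIF4 at nAT, 1.77% of tested genes were called higher than in warm Col-0 and 7.89% lower. None of the 8 was called in edgeR, with 7 at an unadjusted p under 0.05 and 6 past the adjusted p threshold alone, and DESeq2 called none. In edgeR HAT3 differed by 0.48 (adjusted p = 5.03e-05), PAR2 by 0.48 (adjusted p = 0.001) and HAT2 by 0.41 (adjusted p = 0.00011). HAT1 differed by 0.41 (adjusted p = 2.28e-07) and ATHB4 by 0.30 (adjusted p = 0.0272). All of these were higher in 35S::PIF4 at nAT, without overlap. PIL1 was again at the threshold with 0.996 (adjusted p = 3.5e-07), and passed it without Col-0 hAT replicate 2 (1.04) or replicate 4 (1.01) and without 35S::PIF4 nAT replicate 1 (1.02) or replicate 4 (1.06). PAR1 differed by 0.26 (adjusted p = 0.0716) with overlapping libraries. For PIL1, then, the lines at nAT were above Col-0 at either temperature, while for PAR1 35S::PIF4 at nAT lay near warm Col-0 and phyB at nAT lay between the Col-0 groups.

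Over the 24 libraries, PAR1 and PAR2 had a Pearson correlation of log2 CPM of 0.863 and ATHB2 and PIL1 one of 0.855, the highest of the 28 pairs of members. HAT3 followed the PAR genes (0.841 with PAR2 and 0.776 with PAR1), and HAT1 followed HAT3 (0.664). The lowest value was -0.384, for ATHB2 with PAR1. These are descriptions without a test, since the libraries fall into 6 groups of 4 and share their group and depth. In the PAR pair the 4 Col-0 libraries at nAT lie far from the rest, and in the ATHB2 and PIL1 pair the 4 phyB libraries at hAT do.

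**Figure D4:**
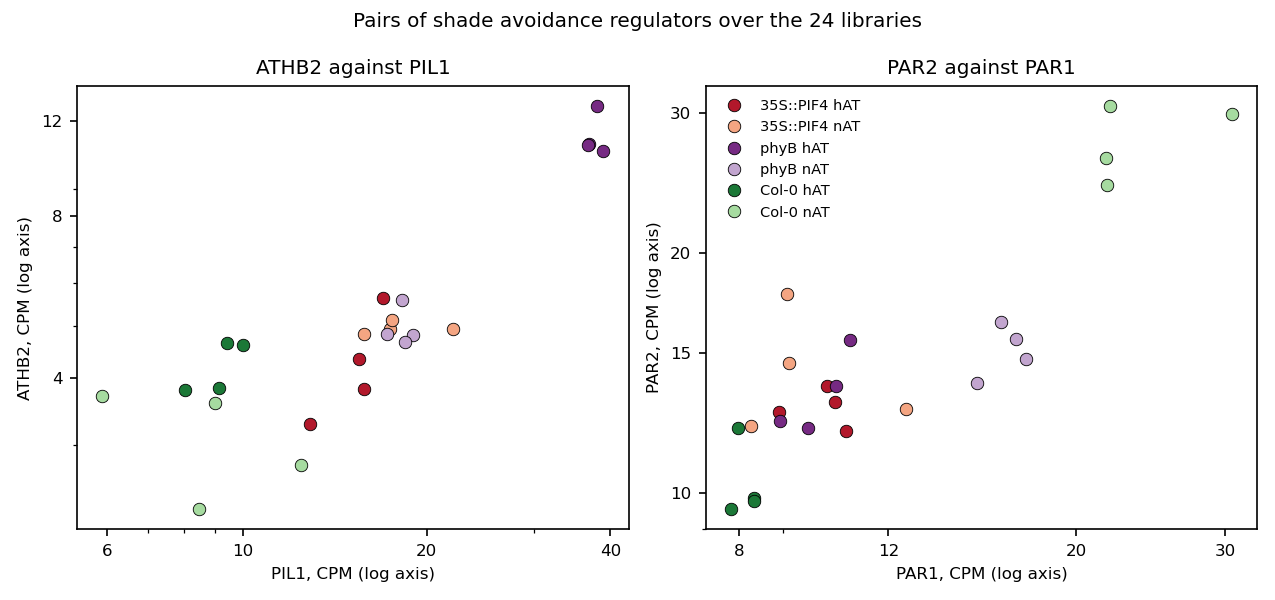
CPM of ATHB2 against PIL1 (left) and of PAR2 against PAR1 (right), both axes logarithmic, with 1 point per library coloured by group. In the left plot the phyB libraries at hAT stand apart at the upper right (PIL1 36.8 to 39.0 CPM, ATHB2 10.6 to 12.8 CPM), and in the right plot the Col-0 libraries at nAT do (PAR1 21.7 to 30.6 CPM, PAR2 24.4 to 30.6 CPM).

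Among the 19012 tested genes with a mean of at least 1 CPM, the most similar profile to ATHB2 was that of AT4G26520, an aldolase family gene (r = 0.918, n = 24 libraries), followed by BZIP18 (0.886) and PIL1 itself (0.855). PIL1 was closest to PRK, the phosphoribulokinase of the Calvin cycle (0.95), CSP41A, a chloroplast RNA-binding protein gene (0.925), and CYCD1-1, a D-type cyclin gene (0.916). PAR1 was closest to the cell wall gene XTH6 (0.967) and to AT3G28220 (0.965) and AT3G19680 (0.947). PAR2 was closest to VTE4 of tocopherol synthesis (0.960), the plastid desaturase gene ADS3 (0.953) and the plastid glutamine synthetase gene GLN2 (0.951). HAT3 was closest to AT5G17010 (0.966), AT1G35780 (0.960) and ADS1 (0.955), and HAT1 to AT4G11550 (0.920), MYB82 (0.884) and FAR3 (0.880). The nearest profiles were less alike for HAT2 (0.853, AT4G36530) and ATHB4 (0.783, AT1G61300), the genes with the least variation between groups.

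Related genes gave the setting for these values, and their counts in Col-0 at hAT stand beside the 24.2% and 13.4% of all tested genes that rose and fell there. At hAT 4.63% rose and 3.46% fell in phyB, and 8.5% rose and 2.48% fell in 35S::PIF4. Against Col-0 at hAT, 1.56% were higher and 3.22% lower in phyB, and 1.47% higher and 1.61% lower in 35S::PIF4. Of the 5 HD-Zip class II paralogs listed beside the members, ATHB18 rose at hAT in Col-0 by 1.61 on the log2 scale (edgeR adjusted p = 7.7e-05) and in 35S::PIF4 by 1.52 (adjusted p = 6.74e-05). Its level was low, at a mean of 1.87 CPM in 35S::PIF4 at hAT, 0.648 CPM in 35S::PIF4 at nAT, 1.61 CPM in warm Col-0 and 0.548 CPM in Col-0 at nAT. The other 4 paralogs were not called by temperature in any genotype. Of 5 HD-Zip class III genes, which set the adaxial side of lateral organs, 3 rose in Col-0 at hAT: PHV by 1.87, PHB by 1.58 and CNA by 1.35. None of the 5 was called by temperature in phyB or 35S::PIF4. With the length trend removed, PHV was at 1.04, PHB at 0.72 and CNA at 0.29, so only PHV of the 3 was still called. The median log2 difference in Col-0 was -0.084 for the class II list and 1.35 for the class III list, beside 0.14 over all tested genes. With the length trend removed these medians were -0.058, 0.29 and -0.049.

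Of 8 HLH and related bHLH genes, 6 passed the low count filter (PRE3 and PRE4 did not). In Col-0 at hAT IBH1, an HLH repressor of cell elongation, rose by 1.78 (adjusted p = 1.48e-07), and the PRE genes, which free bHLH activators from such repressors, were lower: PRE5 fell by 2.45, PRE2 by 1.40 and PRE1 by 1.30. The median of the 6 genes was -1.15. IBH1 rose at hAT in 35S::PIF4 by 3.37 (adjusted p = 2.95e-11) and in phyB by 1.70 (adjusted p = 5.27e-06) as well, and so it was called in all 3 genotypes, which no member was. It averaged 3.71 CPM in 35S::PIF4 at hAT, 0.349 CPM in 35S::PIF4 at nAT, 1.91 CPM in phyB at hAT, 0.587 CPM in phyB at nAT, 3.56 CPM in warm Col-0 and 1.03 CPM in Col-0 at nAT. Without the length trend PRE1 was under the fold threshold in Col-0 (-0.89), and the median of the 6 genes was -0.73. At hAT, PRE5 was higher in 35S::PIF4 than in Col-0 by 2.01 (edgeR adjusted p = 5.16e-06). PRE5 was low, at a mean of 2.33 CPM in 35S::PIF4 at hAT and 0.568 CPM in warm Col-0, there with at most 20 counts. HFR1, a shade-induced bHLH that holds back PIFs, was higher in phyB than in Col-0 at hAT by 1.45 (adjusted p = 5.39e-14), with 47.7 CPM in phyB and 17.5 CPM in Col-0. HFR1 was named after its value was seen, as the only gene of that list called there.

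Of 15 light input genes, 4 rose in Col-0 at hAT, a share near the 24.2% of all tested genes, with a list median of 0.39. They were led by PIF1 (1.22) and PIF3 (1.13) and followed by PHYC (1.07) and PHYE (1.02). Under median-of-ratios scaling only PIF1 and PIF3 were called, and with the length trend removed none of the 4 was, with PHYC at -0.049 and PHYE at -0.15, while PHYA was called lower at -1.18. The list median with that trend removed was -0.145. In phyB, where 4.63% of tested genes rose and 3.46% fell, 1 of the 15 was called, PIF7 (1.105, edgeR adjusted p = 0.0171). PIF7 was low, at a mean of 0.77 CPM and at most 32 counts in phyB at hAT. In phyB at nAT it was at 0.364 CPM and at most 12 counts. In 35S::PIF4, where 8.5% rose and 2.48% fell, none of the 15 was called. At hAT PIF5, a bHLH activator of the shade response, was higher in phyB than in Col-0 by 1.29 (edgeR adjusted p = 2.76e-10). It was the only one of the 15 called in that comparison, where 1.56% of tested genes were higher and 3.22% lower. PHYA, PIF5 and PIF7 were likewise named after their values were seen.

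Of 17 further genes that shade or PIFs regulate in seedlings, 13 were tested. In Col-0 at hAT 4 rose, among them the florigen gene FT (1.76) and FHL (1.61), which helps carry phytochrome A into the nucleus, and 3 fell, among them ST2A (-2.05) and BBX28 (-2.01), with a list median of -0.50. Under median-of-ratios scaling and in DESeq2 4 rose and 4 fell, and with the length trend removed 2 rose (FT and FHL) and 2 fell (ST2A and BBX28), with a list median of -0.325. BBX28 was uneven in Col-0 at nAT, at 71.5 to 196 CPM, against 27.9 to 28.7 CPM in warm Col-0. FHL was low, at a mean of 1.06 CPM and at most 28 counts in Col-0 at nAT. FT rose in 35S::PIF4 too, by 2.87 (adjusted p = 3.47e-12), and ST2A fell in phyB, by 1.37 on the log2 scale (adjusted p = 7.58e-05). None of the 13 was called between phyB and Col-0 at hAT, where 1.56% of tested genes were higher and 3.22% lower. None was called between 35S::PIF4 and Col-0 at hAT either, where 1.47% were higher and 1.61% lower.

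The upstream motifs were counted in all 27443 promoters of protein-coding genes, in a window of 250 bases before to 50 after the annotated gene start of TAIR10. None of the 8 members had a G-box, which 7.7% of promoters had, and none had CAATNATTG, which 1.1% had. HAT2 and PAR2 had a PBE box, which 12.9% had. In the 1000 bases before the start, a window added after the data were seen, PAR1 alone had a G-box (14.8% of promoters), and HAT1, HAT2, HAT3, PAR1 and PAR2 had a PBE box (37.7%). ATHB2 and HAT1 had CAATNATTG (3.4%). The most PBE matches were 5 in PAR2 and 4 in PAR1. PIL1 and ATHB4 had no match to any of the 3 motifs in either window. A match is a description and not a binding site, and its absence says only that these letters were not in the window.

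**Figure D5:**
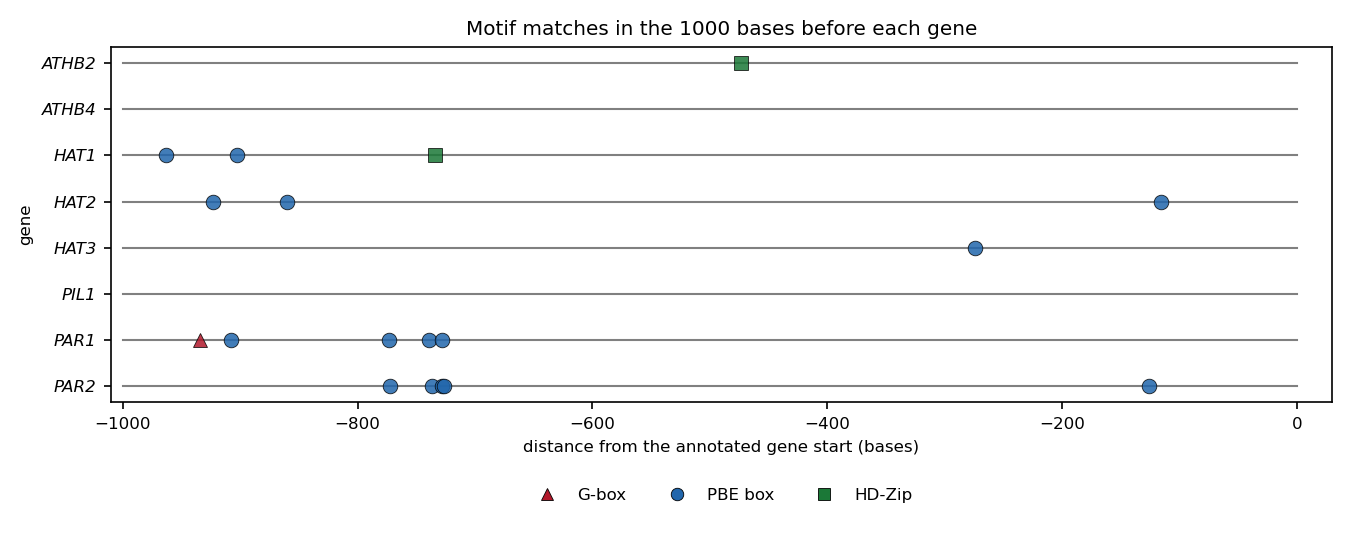
Matches to the G-box (triangles), the PBE box (circles) and the HD-Zip palindrome (squares) in the 1000 bases before each gene start (horizontal axis, bases from the start, to scale), 1 line per gene. PAR1 and PAR2 each carry a group of PBE boxes that begins at -776 and -775, and the lines of PIL1 and ATHB4 are empty.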

How the data were processed

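Pistil RNA of 24 libraries was sequenced, and each library was assigned to its genotype, temperature and replicate by its label. The authors trimmed reads with fqtools, used TAIR10 and Araport11 as genome and annotation and counted reads with featureCounts; their aligner is not given in these sources. They deposited raw read counts per gene, and FPKM values per gene that match counts over gene length once library sizes are scaled by the median-of-ratios method (100% of values with at least 100 counts within 1%). No column of single samples was left unused.

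The deposited counts (18379748 to 30184035 per library) were tested with edgeR 4.0.16 under R 4.3.3, with limma 3.58.1. Genes were filtered with filterByExpr (21312 of 33055 kept), normalized by TMM and fitted as 6 group means over all 24 libraries with the quasi-likelihood method (18 residual degrees of freedom). The 11 comparisons and 3 interactions were adjusted by Benjamini-Hochberg over all tested genes, and calls needed an adjusted p under 0.05 together with a log2 fold change of 1 or more in either direction. Levels are TMM-scaled CPM with the SD of 4 libraries; levels between genes use FPKM. The standard error is the log2 fold change divided by the root of the F statistic. Correlations used log2 CPM with a prior count of 2. The labels name no cultures or plants, so p-values measure the spread between these libraries.

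Alternatives were median-of-ratios (RLE) scaling, no filter, an offset that removes each library's loess trend on gene length (span 0.5), the replicate number as a block, only the libraries compared, DESeq2 1.42.0 and leaving out each library. Motifs and sequences were read in Python 3.11.15 from the RefSeq TAIR10.1 genome, in which 27443 of 27444 protein-coding genes had the same coordinates as the count table; protein sequences were not used here. Figures were drawn with matplotlib 3.10.9.

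The members and the gene lists were chosen with earlier results of these data known. By rule, all 8 members were named, with at most 4 genes of each other list (those with the largest change in Col-0 between temperatures), the 3 most similar profiles and PIF4 and PHYB; exceptions are stated.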

Additional observations from a re-analysis of the deposited data

Results flagged for a closer look

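In 5 of the 48 groups of 4 values (8 genes in 6 groups), 1 library lay far from the other 3 of its group by Dixon's criterion, which chance alone flags in about 1 of 20 groups. These were ATHB2 in phyB hAT replicate 3 at 12.81 CPM, ATHB4 in Col-0 hAT replicate 2 at 8.70 CPM, HAT2 in 35S::PIF4 nAT replicate 1 at 32.4 CPM, PAR1 in Col-0 nAT replicate 2 at 30.6 CPM and PAR2 in Col-0 hAT replicate 1 at 12.1 CPM. The PAR1 library is also the one that differed most from its group over all genes. Without it PAR1 still fell in Col-0 at hAT, by 1.43 on the log2 scale.

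The response to temperature differed between genotypes by the interaction test in edgeR for 6 values. It was higher in phyB than in Col-0 for PIL1 (1.03) and PAR2 (1.26), higher in 35S::PIF4 than in Col-0 for PAR1 (1.60) and PAR2 (1.26), and lower in 35S::PIF4 than in phyB for ATHB2 (-1.41) and PIL1 (-1.31). The values against Col-0 share the 8 Col-0 libraries, among them those at nAT in which the green tissue markers summed to 10800 to 13700 CPM. The part of that difference in tissue was not tested.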

How the results depend on the processing

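Of the 18 calls of a member in a comparison, 18 were kept with the replicate block, 18 without the filter, 17 with only the groups compared, 16 with RLE scaling, 16 in DESeq2 and 13 with the length offset, and 183 of 192 over all leave-one-out fits. No called value changed sign in any of them; of the uncalled ones, 17 did so in some setting, none above 0.12 in size on the log2 scale. For phyB against Col-0, both at nAT, the count of called members was 1 and became 0 under RLE scaling, the length offset, only the groups compared and DESeq2 (0 to 1 when a library was left out), since PIL1 was then at 0.94, 0.96, 0.97 and 0.94. In 35S::PIF4 at nAT against Col-0 at nAT it was 2 and became 0 with the length offset (1 to 3 when a library was left out); RLE scaling and DESeq2 put PIL1 at 0.92 and PAR2 at -1.05. Against Col-0 at hAT the count was 1 for phyB at nAT (0 to 2 when a library was left out) and 0 for 35S::PIF4 at nAT, where it became 1 without the filter or with the length offset (0 to 1 when a library was left out). The interactions with Col-0 had 2 called members and 1 with the length offset, for phyB (1 to 2 when a library was left out) and for 35S::PIF4 alike. The number of genes called higher at nAT was 4508 for phyB and 4107 for 35S::PIF4 against Col-0, and 2924 and 2649 with the length offset; genes with a lower response numbered 4602 for phyB and 4126 for 35S::PIF4 against Col-0 and 191 for 35S::PIF4 against phyB, and 3034, 2689 and 292 with it. In phyB against Col-0 at hAT, 332 genes were higher and 686 lower, or 398 and 534 with the offset. The offset moved the median log2 difference of all genes to -0.049 in Col-0 between temperatures, against 0.14 without it, and to -0.043 for phyB at nAT against Col-0, against 0.11 without it. The cause of these shifts was not tested. Replicate numbers did not pair the libraries: the 60 same-number pairs had correlations of -0.167 to 0.174, 1 of them above 0.1, and in 12 of the 60 the same-numbered library was the closest of the 4 in the other group. With the replicate block, PAR1 in Col-0 between temperatures was at -1.55, and the block changed no call. In FPKM the order of groups changed for HAT1, HAT2 and PIL1, each by a swap of neighbours that overlapped. In the 1000-base window, chosen after seeing the data, 1 member had a G-box, 5 a PBE box and 2 the HD-Zip palindrome, against 0, 2 and 0 in the main window. Depth limits ATHB2 most, with 41 to 406 counts per library.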
